A study of Homo sapiens with 9 samples.

Results

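The M14 carboxypeptidases are zinc-dependent peptidases that trim amino acids from the carboxyl end of proteins and peptides, together with relatives that kept the fold but lost the activity. The 10 genes described here were CPXM2, CPXM1, AEBP1, CPE, CPD, CPM, CPN1, CPZ, CPA4 and AGTPBP1, 10 of the 58735 genes in the deposited tables. They were picked by name as members of this family around CPXM2, the protein whose effect the study examined, and each had 1 row in the tables. The study measured RNA in PaTu 8988t, an established human line of pancreatic tumour cells, exposed to an extracellular matrix of 1 of 3 kinds. The groups were a control matrix (Ctrl ECM), a matrix with wild-type CPXM2 (CPXM2WT OE ECM) and a matrix with the mutant R213A (CPXM2R213A OE ECM), with 3 libraries each. All 3 groups shared the line and its medium, DMEM with serum and antibiotics. The labels put the CPXM2 protein in the matrix, name no cells that made it, and do not say whether the 3 libraries of a group came from separate cultures.

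Family members work in different places. CPE, CPD and CPM are active enzymes that remove basic residues from peptides, CPE in secretory granules, CPD in the trans-Golgi network and CPM on the cell surface. CPXM1, CPXM2 and AEBP1 lack residues needed for catalysis and carry a discoidin domain, a fold that in other proteins binds collagen or membranes. AGTPBP1, also called CCP1, is a cytosolic member that shortens polyglutamate chains on tubulin.

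The position changed in the R213A mutant is shown because it separates the 2 CPXM2 matrices. In the GENCODE 29 coding sequence of CPXM2 (hg38, minus strand, 2268 bases, 756 codons), the codon at the position that R213A names is AGG, an arginine codon. It lies in exon 4 of 14 at chr10:123842363-123842365. The stretch of 93 coding bases below, coding bases 592 to 684, runs from exon 4 into exon 5, and the capitals mark that codon. Whether the CPXM2 in the matrices came from this coding sequence is not given in the sources used here.
CPXM2 around the R213A codon: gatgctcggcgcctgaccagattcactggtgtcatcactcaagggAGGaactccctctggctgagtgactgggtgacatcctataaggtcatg

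Recovered totals ranged from 15951927 to 18312806 reads per library. The values came as 2 tables of FPKM, a measure of fragments scaled by gene length and library size. The smaller one, called the 4-library table below, had replicate 1 of each group plus R213A 3. The larger one, the 5-library table, had the other controls and wild-type libraries plus R213A 2. The number of genes at least 2-fold apart was 387 to 2316 for pairs of libraries within the 4-library table and 1663 to 5434 for pairs across tables. Pairs within the 5-library table differed at 376 to 416 genes where control 2 was part of the pair and at 41 to 66 otherwise. Control 2 and the 4 libraries of the smaller table therefore stood apart from the rest. The differences of the tested members are therefore also given within each table and, against control, without control 2.

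The discoidin members were at or close to 0. CPXM2 (ENSG00000121898, chr10:123706207-123940267, minus strand) had a single read over the 9 libraries, in R213A 3, and none in any library on the wild-type matrix. CPXM1 (ENSG00000088882, chr20:2794069-2800637, minus strand) had none at all. AEBP1 (ENSG00000106624, chr7:44104361-44114562, plus strand), also known as ACLP, a protein of collagenous tissue, had 2, 0 and 2 reads in control 1 to 3. It had 0, 0 and 1 on the wild-type matrix and 1, 0 and 6 on the R213A matrix, so the groups overlapped. For CPXM2, 3 reads, about the one-sided 95% limit of a count of 0 for counting error only, would be 0.0319 to 0.0455 FPKM in these libraries. The tumour cells thus held at most traces of CPXM2 transcript in each group.

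CPE, CPD and AGTPBP1 were the 3 members that averaged 1 FPKM or more, the level required for testing, which 11193 of all 58735 genes reached. Together they made up 97.7% to 99.5% of the summed FPKM of the 10 members in each library. FPKM is scaled by gene length, which allows levels to be set side by side between genes. In the 4-library table FPKM also shifted with gene length between libraries, so that the long CPD is less directly comparable with CPE there.

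CPD (ENSG00000108582, chr17:30378905-30469989, plus strand) had the highest mean of the 10, at 12.3 FPKM. This membrane enzyme cycles through the trans-Golgi network and acts on proteins in transit. Its level was 8.31, 21.5 and 16.6 FPKM in control 1 to 3, 4.22, 17.8 and 15.3 FPKM in wild type 1 to 3, and 3.62, 17.4 and 5.68 FPKM in R213A 1 to 3. The 4 lowest values were the 4 of the smaller table. Between 615 and 4419 reads stood behind each value.

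AGTPBP1 (ENSG00000135049, chr9:85546539-85742029, minus strand) followed with a mean of 11.1 FPKM. It had 7.48, 18.0 and 13.4 FPKM in control 1 to 3, 7.99, 15.0 and 13.1 FPKM in wild type 1 to 3, and 3.76, 14.4 and 7.27 FPKM in R213A 1 to 3. R213A 1 was the lowest library, and the rest of the 4-library table lay close together.

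CPE (ENSG00000109472, chr4:165361194-165498320, plus strand), the enzyme that finishes peptide hormones after the prohormone convertases have cut them, averaged 4.27 FPKM. Its level was 2.69, 7.08 and 6.02 FPKM in control 1 to 3, 2.34, 5.66 and 5.05 FPKM in wild type 1 to 3, and 1.67, 5.76 and 2.19 FPKM in R213A 1 to 3. CPE was below CPD and below AGTPBP1 in every library. CPD and AGTPBP1 changed places: CPD was the higher in 6 libraries and AGTPBP1 in wild type 1, R213A 1 and R213A 3.

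**Figure D1:**
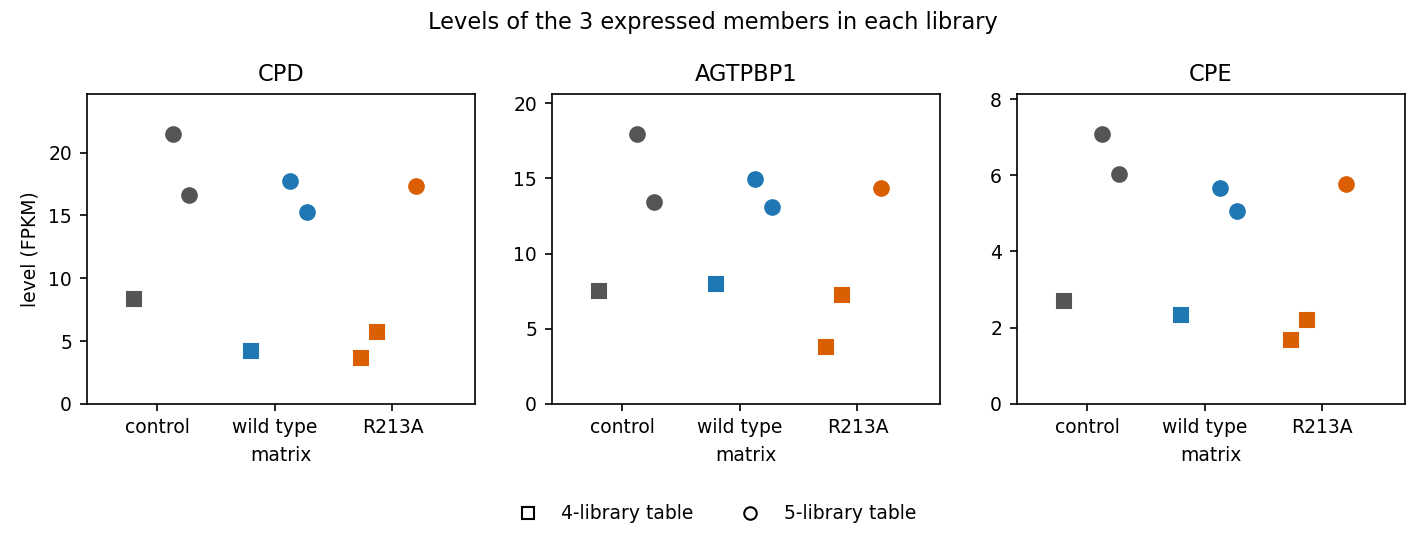
The 3 panels plot the level of CPD, AGTPBP1 and CPE in FPKM (vertical axis) for each library, grouped by matrix, with squares for the 4-library table and circles for the 5-library table. Every square lies below every circle of the same gene.

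For all 3 genes every value of the 4-library table was below every value of the 5-library table, whatever the matrix. The table means were 5.46 and 17.7 FPKM for CPD, 6.63 and 14.8 FPKM for AGTPBP1, and 2.22 and 5.92 FPKM for CPE. The same separation held for 30.3% of the 11193 genes tested. The gap stood in the recovered reads too: CPD had 615 to 1953 reads in the 4 libraries and 3619 to 4419 in the 5, while library scaling spanned only 0.850 to 1.09. Some genes went the other way, such as CPVL, a serine carboxypeptidase relative named after its values were seen, at 13.1 to 15.2 FPKM in the smaller and 4.40 to 5.69 FPKM in the larger table. Each group difference was therefore formed within tables. What the tables stand for is not given in the sources used here.

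CPM (ENSG00000135678, chr12:68842197-68971570, minus strand), a surface enzyme anchored by a lipid, was low but present in every library. It had 29, 24 and 26 reads in control 1 to 3, 16, 29 and 24 in wild type 1 to 3, and 15, 29 and 18 in R213A 1 to 3. The group means were 0.197 ± 0.00692 FPKM (SD, n = 3) on the control matrix, 0.161 ± 0.0481 on the wild-type matrix and 0.166 ± 0.0480 on the R213A matrix. The summed reads of 79, 69 and 62 had exact 95% Poisson intervals of 62.5 to 98.5, 53.7 to 87.3 and 47.5 to 79.5, which overlap. These means and sums pool the 2 tables. In the smaller table CPM had 0.205 FPKM on the control, 0.110 on the wild-type and 0.138 on the R213A matrix. In the larger table it had 0.193, 0.187 and 0.220 FPKM in the same order. CPM shares its locus with MDM2, the gene of a p53 ubiquitin ligase, on the opposite strand, at a mean of 7.62 FPKM. The strand setting of the counting is not given, so reads of the 2 genes cannot be told apart with certainty.

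CPZ (ENSG00000109625, chr4:8592660-8619759, plus strand), an enzyme with a frizzled-like domain, had 4 reads in control 1, 1 in wild type 2 and none elsewhere. CPN1 (ENSG00000120054, chr10:100042193-100081877, minus strand), the catalytic subunit of the plasma enzyme that inactivates kinins and anaphylatoxins, had 1 read, in control 2. These levels do not separate any groups at this depth.

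CPA4 (ENSG00000128510, chr7:130293134-130324180, plus strand) is a relative of the digestive carboxypeptidases. It was the 1 low member with reads in every control and R213A library and none in the wild-type libraries. It had 7, 2 and 2 reads in control 1 to 3 and 3, 3 and 1 in R213A 1 to 3, and none in wild type 1 to 3. The sums were 11 reads on the control matrix (exact 95% Poisson interval 5.49 to 19.7), 7 on the R213A matrix (2.81 to 14.4) and 0 on the wild-type matrix (two-sided upper limit 3.69, against 3 as a one-sided limit). These intervals cover counting error only.

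The CPA4 pattern was singled out after its values were seen. It did not pass the test over all genes. With the filter on low values removed, limma gave a wild-type difference from control of -0.07 ± 0.03 (log2(FPKM + 1), SE), an unadjusted p of 0.0386 and an adjusted p of 0.834. Reads in each of the 6 other libraries and none in the 3 wild-type libraries were found for 11 of 30368 genes with a read, or 0.0362%. The same pattern had a like frequency for the groups where CPA4 did have reads, 0.0329% with the control libraries at 0 and 0.0395% with the R213A libraries at 0. Most of the 30368 genes were too abundant or too rare to show it.

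**Figure D2:**
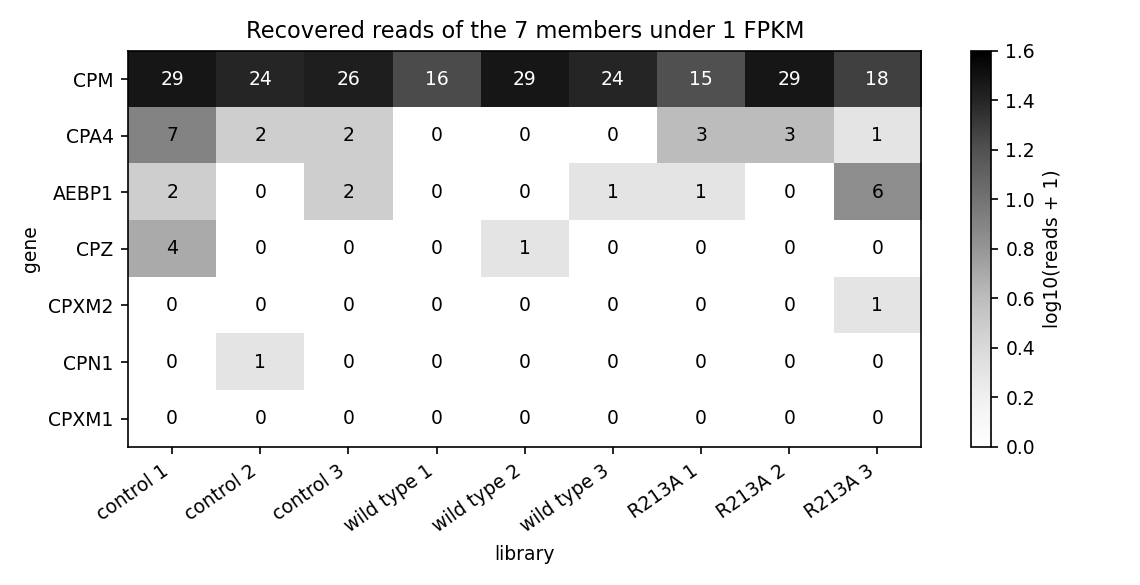
The grid gives the recovered reads of the 7 members with a mean under 1 FPKM (rows) in each of the 9 libraries (columns), with darker cells for more reads on a log10(reads + 1) scale. CPM has 15 to 29 reads in every library, and CPA4 has none in the 3 wild-type libraries.

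Promoters of the 2 members at the ends of the CG range are shown. AGTPBP1, at the upper end, was expressed and CPA4, at the lower end, had few reads. Across the members the level followed the CG number only in part, with CPM, CPXM1 and CPXM2 low or absent. RefSeq sequence (GRCh38.p14) of the 250 bases before the start site was matched for 8 of the 10 genes. The start site was that of RefSeq, and for CPXM2, CPE and CPM the whole stretch lay inside the gene span given above. Sequence before the start of that span was not examined for these genes. The number of CG pairs was 40 for AGTPBP1, 36 for CPM, 24 for CPXM1, 21 for CPD, 20 for CPE, 20 for CPXM2, 1 for CPN1 and 0 for CPA4. Over 27305 promoters the median was 11, with quartiles of 3 and 23, and 32.1% had at least 20. CPXM2 and CPXM1, with at most 1 read in all, thus had about as many as CPE and CPD. The motif TATAAA, searched on both strands, occurred in CPXM1 and CPA4 and in 11.1% of all these promoters. CACGTG was in none of the 8 and in 6.49% of all. Below, on the strand of the gene, capitals mark CG pairs, at chr9:85742030-85742279 for AGTPBP1 and chr7:130292911-130293160 for CPA4.
AGTPBP1 promoter: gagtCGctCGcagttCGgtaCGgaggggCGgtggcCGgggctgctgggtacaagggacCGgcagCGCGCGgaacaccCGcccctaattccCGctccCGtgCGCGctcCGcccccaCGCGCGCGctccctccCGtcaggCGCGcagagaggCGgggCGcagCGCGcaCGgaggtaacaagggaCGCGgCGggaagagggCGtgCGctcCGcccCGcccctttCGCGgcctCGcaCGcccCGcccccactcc
CPA4 promoter: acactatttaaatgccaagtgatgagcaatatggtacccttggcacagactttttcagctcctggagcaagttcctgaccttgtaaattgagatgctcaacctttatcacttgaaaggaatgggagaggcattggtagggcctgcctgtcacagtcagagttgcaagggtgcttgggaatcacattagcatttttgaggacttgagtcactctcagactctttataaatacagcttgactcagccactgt

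The first comparison, wild-type against control matrix, asks what CPXM2 in the matrix does to the cells. The fitted differences of CPE, CPD and AGTPBP1 were all below 0, and none passed the threshold. On the log2(FPKM + 1) scale CPE differed by -0.21 ± 0.16 (SE), with a 95% interval from -0.57 to 0.15 and an adjusted p of 0.757 in limma's test over 11193 genes. CPD differed by -0.40 ± 0.22, with an interval from -0.90 to 0.10 and the same limma adjusted p of 0.757. AGTPBP1 differed by -0.07 ± 0.24, with an interval from -0.60 to 0.47 and a limma adjusted p of 0.939. The intervals are wide, and a p above the threshold does not show equal levels.

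No gene passed the adjusted threshold of 0.05 in this comparison, 0% of those tested, in limma or in limma-voom on the recovered reads. At an unadjusted p under 0.05 limma listed 503 genes, 4.49%, and limma-voom 425, and none of the 3 members was among limma's 503. The CPD difference came mainly from the 4-library table, where it was -0.83 against -0.19 in the 5-library table. It was -0.01 in the 5-library table without control 2, and the fit gave -0.19 without control 1. AGTPBP1 had opposite signs in the tables, 0.08 and -0.14, but 0.06 in the larger without control 2. CPE had the same sign in both tables, -0.14 and -0.25, and -0.15 in the larger without control 2.

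The second comparison set the R213A matrix against the control. CPE, CPD and AGTPBP1 again had fitted differences below 0 that did not pass. CPE differed by -0.27 ± 0.17 (SE), with a 95% interval from -0.64 to 0.11. CPD differed by -0.39 ± 0.23, with an interval from -0.91 to 0.12, and AGTPBP1 by -0.31 ± 0.25, with an interval from -0.87 to 0.24. The limma adjusted p was 0.690 for each. No gene was called, 0% of those tested, in limma or limma-voom. Limma gave an unadjusted p under 0.05 to 341 genes, 3.05%, and limma-voom to 214, and none of the 3 members was among limma's 341.

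Within tables the R213A differences from control were -0.75 and -0.12 for CPD, -0.44 and -0.11 for AGTPBP1, and -0.34 and -0.16 for CPE, the 4-library table first. The larger one stood in the 4-library table for each gene. R213A 1 carried much of it for AGTPBP1, whose fitted difference was -0.09 without that library. CPD gave -0.24 without R213A 1 and -0.11 without control 1, the only control of that table. Without control 2 the 5-library table gave 0.06 for CPD, 0.09 for AGTPBP1 and -0.05 for CPE. The first 2 comparisons share the control libraries, so their values are side by side here and are not independent of each other.

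CPE was the 1 tested member without overlap in these comparisons, a pattern picked out after its values were seen. In each table every library on the wild-type matrix and every library on the R213A matrix lay below every control library of that table. The same held for 9.24% of the 11193 genes with the wild-type matrix and for 11.8% with the R213A matrix. The narrowest gaps were small against counting error: 149 reads in control 1 stood against 134 in wild type 1, and 319 in control 3 against 314 in wild type 2. CPD and AGTPBP1 overlapped with the controls within the 5-library table, where wild type 2 was above control 3 for both.

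The third comparison, wild type against R213A, separates the 2 CPXM2 forms. The fitted differences were 0.06 ± 0.17 (SE) for CPE, with a 95% interval from -0.32 to 0.43, and -0.01 ± 0.23 for CPD, with an interval from -0.53 to 0.51. AGTPBP1 was 0.25 ± 0.25, with an interval from -0.31 to 0.80. The limma adjusted p was 0.996, 0.999 and 0.996. No gene was called, 0% of those tested, in limma or limma-voom. Limma listed 117 genes, 1.05%, at an unadjusted p under 0.05 and limma-voom 100, and none of the 3 members was among limma's 117.

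Within tables the wild-type level of AGTPBP1 differed from R213A by 0.52 in the smaller table and -0.03 in the larger. The CPE differences were 0.20 and -0.09, and the CPD differences -0.09 and -0.07. The libraries of the 2 forms overlapped within a table or turned direction between tables for all 3 members, while 20.4% of the genes tested had no overlap in either table with 1 direction. AGTPBP1 in R213A 1, at 3.76 FPKM, was the single value that set the 4-library difference apart, since R213A 3 had 7.27 and wild type 1 had 7.99.

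**Figure D3:**
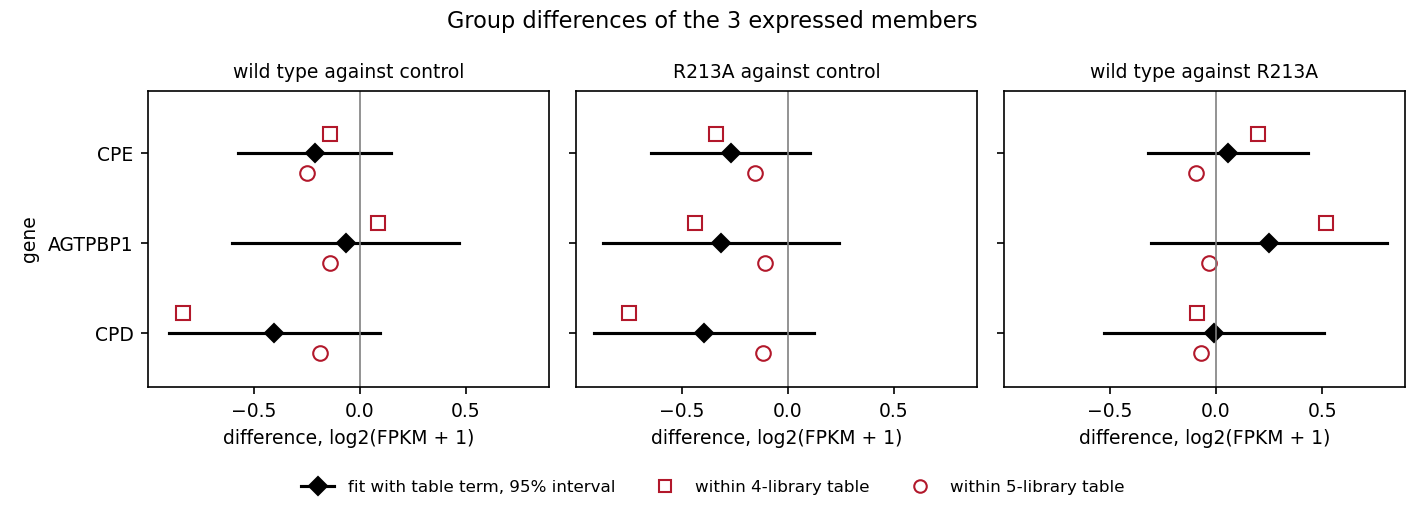
The 3 panels give, for each comparison, the difference of CPE, AGTPBP1 and CPD on the log2(FPKM + 1) scale (horizontal axis), as the limma fit with its 95% interval (diamond and line) and within each table (square for 4 libraries, circle for 5). Every interval crosses 0, and the CPD squares against control lie at -0.83 and -0.75.

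The balance between CPD and its relatives differed among the 4-library libraries. The FPKM ratio of CPD to AGTPBP1 was 1.17 to 1.24 in the 5 libraries of the larger table, across all 3 matrices. It was 1.11 in control 1, 0.528 in wild type 1, 0.962 in R213A 1 and 0.782 in R213A 3. The ratio of CPD to CPE was 2.76 to 3.14 in the larger table, and 3.09, 1.80, 2.17 and 2.60 in the same 4 libraries. The 3 libraries on a CPXM2 matrix in the smaller table thus had less CPD per AGTPBP1 and per CPE than control 1, while wild type 2, wild type 3 and R213A 2 lay within or close to the range of control 2 and 3. The smaller table held 1 control library, and a difference in this ratio was not tested.

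**Figure D4:**
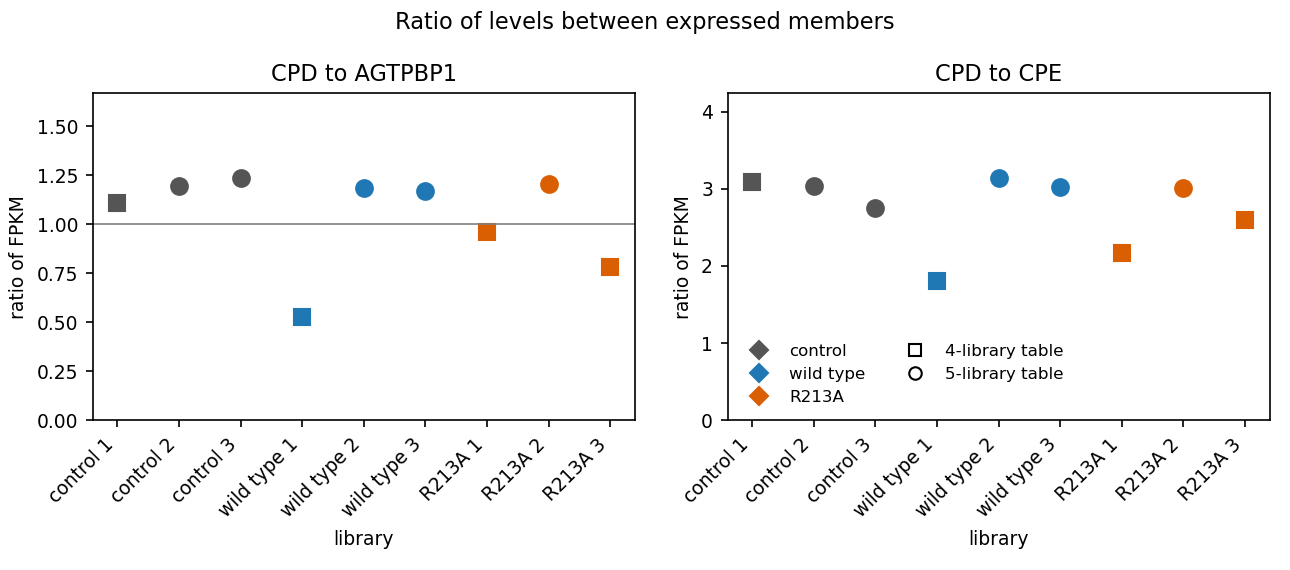
The ratio of CPD to AGTPBP1 (left) and of CPD to CPE (right) in FPKM is plotted for each of the 9 libraries, with colour for the matrix, squares for the 4-library table and circles for the 5-library table. The circles lie between 1.17 and 1.24 on the left, and the squares fall from 1.11 in control 1 to 0.528 in wild type 1.

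Gene length moved with the same libraries. CPD has a listed length of 12532 bases, against 4939 for AGTPBP1 and 2958 for CPE. Against control 1, the median gene of 10000 bases or more (1106 genes) differed by -0.36 in wild type 1, -0.49 in R213A 1 and -0.30 in R213A 3 on the log2(FPKM + 1) scale. The median gene under 2500 bases (2381 genes) differed by 0.28, 0.62 and 0.26. CPD differed by -0.83, -1.01 and -0.48 in these 3 libraries, each further from 0 than the median of its length class. In the 5-library table the class medians of the other libraries differed from control 3 by -0.07 to 0.08. The part of gene length in the CPD difference was not tested.

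Among all genes averaging 5 FPKM or more, those most like each member were ranked by Pearson's r over the 9 libraries, after each table's mean was subtracted. The libraries share table and scaling, so r is a description. CPD was most like SMARCC2 (0.993), HEATR1 (0.992) and DSP (0.988). AGTPBP1 was most like CAST (0.983), CTTNBP2NL (0.981) and UHRF1BP1 (0.977), and CPE was most like FAM8A1 (0.959), AGO2 (0.955) and VIRMA (0.955). Between members r was 0.843 for CPE and AGTPBP1, 0.810 for CPE and CPD and 0.651 for CPD and AGTPBP1.

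Lists of genes around the family were read in the same fit, and none of their members passed the adjusted threshold in any comparison. Of 14 further M14 genes and partners, only AGBL5, a tubulin deglutamylase related to AGTPBP1, was abundant enough to test. It had 4.71 to 9.71 FPKM and differed by 0.11 and 0.18 from control on the wild-type and R213A matrices, with 0.36 and 0.50 in the smaller and -0.01 and -0.12 in the larger table. The pancreatic enzyme gene CPA1, and AGBL1, AGBL4 and CPN2, had 0 reads in all 9 libraries. The carboxypeptidase inhibitor gene LXN averaged 16.0 FPKM and differed by -0.09 on both matrices.

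CPE acts after the prohormone convertases, and 6 of 17 genes of prohormone processing were tested. FURIN, a convertase of the constitutive pathway, averaged 26.3 FPKM, and PAM, which amidates peptides after CPE, averaged 19.1 FPKM. PCSK1 and PCSK2, the granule convertases that work before CPE in endocrine cells, had at most 1 read in any library. PCSK1N, which encodes the convertase inhibitor proSAAS, differed from control by 0.55 on the wild-type and 0.65 on the R213A matrix, in the fit. It had 32.5 FPKM in control 1 against 83.6 in wild type 1 and 120.1 and 65.7 in R213A 1 and 3, but 25.7 to 31.1 FPKM in all 5 libraries of the larger table. The differences there were 0.16 and -0.03, against 1.34 and 1.42 in the smaller table. The list medians against control were -0.13 and -0.12, where all genes had -0.03 and -0.02.

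AGTPBP1 shortens the glutamate chains that tubulin glutamylases add, and 9 of 18 genes of tubulin glutamylation and tyrosination were tested. TTLL1, the catalytic subunit of a tubulin polyglutamylase, differed by 0.68 between wild type and control, with an unadjusted p of 0.00928 and an adjusted p of 0.757 in limma. It was the only 1 of the 28 list genes tested with an unadjusted p under 0.05 in any comparison, 3.57% of them where 4.49% of all genes had one between wild type and control. The TTLL1 difference was 1.34 in the smaller table, with 4.32 FPKM in wild type 1 against 1.10 in control 1, and 0.35 in the larger. TTLL4, another glutamylase, differed by -0.25, and SVBP, a partner of the tubulin detyrosinating enzymes, by 0.36. In the larger table without control 2 both were at 0.01. The list median was 0.04 with the wild-type and 0.07 with the R213A matrix.

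Of 16 other discoidin domain genes, 5 were tested, with list medians of -0.11 and -0.18 against control. MFGE8, DCBLD1, DCBLD2 and CNTNAP1 had the smallest unadjusted p among them, each above 0.05 in limma. On the wild-type matrix DCBLD2 differed by -0.27, with -0.78 in the smaller and -0.01 in the larger table. MFGE8, the 1 gene of the 5 above 0 there, differed by 0.26, with 0.90 and -0.07. DCBLD1 had -0.70 and 0.18 and CNTNAP1 -0.58 and 0.04, the smaller table first. The cells also held serine carboxypeptidases and other enzymes that act at the carboxyl end, and 5 of 7 were tested. CTSZ, the lysosomal cathepsin X, averaged 99.1 FPKM, above all members of the M14 family. The list medians were 0.11 on the wild-type and -0.01 on the R213A matrix. Of 6 genes of the kinin system MME, the membrane peptidase neprilysin, was tested, and it differed by -0.42 and -0.26 from control. On the wild-type matrix the MME difference was -1.01 in the smaller and -0.13 in the larger table, and 0.02 in the larger without control 2.

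Markers were read to check which cells the RNA came from. Of 8 ductal tumour markers 5 reached the level for testing, with means of 348 FPKM for KRT18, 153 for KRT8 and 4.57 for EPCAM. KRT7, KRT19 and CDH1, usual markers of ductal epithelium, were near absent at 0.229, 0.0217 and 0.0736 FPKM. KRT8 and KRT18 mark simple epithelia in general, so these markers do not by themselves support the pancreatic label. The summed level of the ductal list was 357 to 739 FPKM in the control, 352 to 505 in the wild-type and 349 to 955 in the R213A libraries. KRT8 and KRT18 made up nearly all of this sum in every library, and the ranges span both tables. KRT18 was at 647 and 431 FPKM in R213A 1 and 3, of the smaller table, and at 230 in R213A 2. Among the controls it was highest in control 2, at 531 FPKM. No marker of acinar, islet, fibroblast, mast or leukocyte cells reached 1 FPKM, the highest mean being 0.396 FPKM, in the fibroblast list. The summed fibroblast markers were 0.0721 to 0.890 FPKM in the control, 0.116 to 0.866 in the wild-type and 0.0472 to 0.819 in the R213A libraries. COL3A1 among them had 0 to 0.0479 FPKM in the smaller table and 0.331 to 0.828 in the larger. In bulk RNA, fewer cells with a transcript and less transcript per cell cannot be told apart.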

How the data were processed

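The authors deposited FPKM per gene, with the listed gene length, as 2 tables of 58735 genes. Per the labels' protocols, about 500 ng of TRIzol-extracted RNA went into each TruSeq stranded mRNA library. The submitters' processing notes name hg38 and bcl2fastq, while aligner, counter, annotation and strand setting were not given in the sources used here. Coordinates are those of the tables; 58724 of 58735 genes have the same ones in GENCODE 29.

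FPKM times length gave whole reads for 100% of values within 0.01 reads, once a library scale of 0.850 to 1.09 was allowed for. All 9 libraries entered 1 fit in limma 3.58.1 (R 4.3.3) on log2(FPKM + 1), with group and table as terms, a mean-variance trend and 5 residual degrees of freedom. Genes needed a mean of at least 1 FPKM, with Benjamini-Hochberg adjustment over 11193 genes at a threshold of 0.05. The scale understates fold changes of low genes. As the labels name no separate cultures, p-values reflect only the spread among these libraries and it may be technical. The procedure was run on simulated data with planted differences much larger than those fitted for the members and without shifts by gene length. That run does not show what the fit can detect at the size of the member differences.

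The members, lists and alternatives were chosen with earlier results of these data known. All 10 members are named, with up to 4 genes per list by smallest unadjusted p and the 3 most similar genes per tested member. Other list genes were named for their level or absence after their values were seen. The replicate numbers were not used as pairs in the main fit. Correlations of same-numbered libraries cannot settle whether they are pairs. The difference between tables was left in them, and R213A 3 lies in another table than control 3 and wild type 3. Alternatives changed the pseudocount (0.1 and 0.5), the filter, the scaling, the table term, the libraries and the test (limma-voom), and the 5-library table without control 2 was added after seeing the data.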

Additional observations from a re-analysis of the deposited data

How the results depend on the processing

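Each of the 9 differences of CPE, CPD and AGTPBP1 was recomputed under 21 or 22 alternatives. Of these 195 values, 175 kept their direction, 20 turned it and 0 passed the adjusted threshold. Part of the 175 could not turn: the filter changes no estimate. Nor do the table term, replicate numbers or R213A libraries for wild type against control. CPE against control never turned, from -0.28 to -0.14 with the wild-type and -0.62 to -0.05 with the R213A matrix. Requiring a mean of 5 FPKM left CPE out. All values are log2(FPKM + 1) differences.

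Leaving out 1 library gave, for wild type against control, CPE -0.28 to -0.15, CPD -0.58 to -0.19 and AGTPBP1 -0.20 to 0.0349, above 0 without control 2 (0.0349) and without wild type 3 (0.0311). For R213A against control it gave CPE -0.37 to -0.19, CPD -0.54 to -0.11 and AGTPBP1 -0.51 to -0.09. For wild type against R213A it gave CPE -0.0309 to 0.16, CPD -0.16 to 0.14 and AGTPBP1 0.02 to 0.44. There CPE turned without wild type 1 (-0.0309) and R213A 1 (-0.0251), and CPD without wild type 1 (0.14), wild type 3 (0.0038), R213A 2 (0.13) and R213A 3 (0.08). No gene was called with any 1 library left out. Without control 3 the CPD interval lay below 0 against control, -1.11 to -0.045 with the wild-type and -1.07 to -0.007 with the R213A matrix. Limma gave it unadjusted p of 0.0368 and 0.0475 and adjusted p of 0.391 and 0.494. That fit gave an unadjusted p under 0.05 to 1378 and 1096 of the 11193 genes.

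AGTPBP1 against control on the wild-type matrix was 0.0839 in the 4-library table alone. In the 5-library table without control 2 it was 0.0556, and on the R213A matrix CPD was 0.0610 and AGTPBP1 0.0904. For wild type against R213A, the 5-library table gave CPE -0.0917 and AGTPBP1 -0.0348, both also without control 2. CPE was -0.0025 with quantile scaling. CPD was 0.50 without the table term and 0.10 with limma-voom, which moved the median of all genes to 0.11. Without the table term the R213A differences from control grew to -0.62 for CPE, -0.90 for CPD and -0.65 for AGTPBP1. The cause was not tested.

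The count of called genes was 0 in most fits. Without the filter it was 1 in each comparison with control, both times AC048334.1 (mean 0.119 FPKM), named after its values were seen. In the 4-library table alone, with 1 residual degree of freedom, it was 775 and 184 for the wild-type and R213A matrices against control and 327 between them. In the 5-library table without control 2, also with 1, it was 14 and 16 against control. None of these was a member.

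The replicate number as a block, with the table term, called 0 genes. It gave AGTPBP1 -0.56 for R213A against control, and CPD 0.18, CPE 0.15 and AGTPBP1 0.49 for wild type against R213A. Of 9 same-number pairs 7 correlated above 0.1, with r from -0.70 to 0.84, and 6 of 9 libraries correlated best with their own number. R213A 3 gave the negative values, -0.65 with control 3 and -0.70 with wild type 3, both in the other table. With the table difference left in, r cannot settle whether equal numbers are pairs. Depth limits CPXM2, CPXM1, AEBP1, CPZ, CPN1 and CPA4, each with 18 reads or fewer in all.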
